A study of Mus musculus with 12 samples.

Results

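The 8 genes described here encode transcription factors that set and maintain the identity of the intestinal epithelium: the homeobox factors Cdx1 and Cdx2, the nuclear receptors Hnf4a and Hnf4g, the zinc finger factors Klf4 and Klf5, the ETS factor Elf3 and the Notch effector Hes1. They were taken by symbol from the 46517 gene IDs of the count tables. All 8 were found, and all 8 were among the 12522 genes that passed the filter on low counts. RNA was sequenced from intestinal epithelial cells of the colon of C57BL/6 mice aged 7 to 9 weeks. The 12 samples formed 4 groups of 3: wild-type (WT) mice without treatment, WT mice given dextran sulfate sodium (DSS) for 48 h, untreated mice of the genotype Nfkb2-/- (knockout, KO), and KO mice given DSS for 48 h. DSS is a sulfated polysaccharide that injures the colonic epithelium, and Nfkb2 encodes p100, the precursor of the NF-kB subunit p52. The labels state 3 biological replicates per group. They do not state whether animals were pooled, the dose of DSS, or how the Nfkb2 allele was made. The p-values below measure the spread between these samples.

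As background, Cdx1 and Cdx2 are switched on in the gut endoderm and bind control regions of enterocyte genes, often together with Hnf4a and Hnf4g, which keep brush border and lipid-handling genes active. Klf4 is known from differentiated surface and goblet cells and restrains the cell cycle, whereas Klf5 is known from dividing crypt cells, and Elf3 is an epithelial ETS factor needed for enterocyte and goblet cell differentiation that also responds to inflammatory cytokines. Hes1 is switched on by Notch and represses Atoh1, the factor that commits cells to secretory fates.

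Total counts ranged from 5595909 to 8117740 per sample. Nfkb2 lay between 30.8 and 46.1 CPM (read counts scaled to library size, with TMM factors) in the 6 WT samples and between 11.7 and 19.6 CPM in the 6 KO samples, without overlap (exact two-sided permutation test over 924 arrangements, p = 0.00216, the smallest this design allows). All 12 epithelial markers had counts in every group, with summed levels of 27730 to 42420 CPM. The 20 leukocyte markers summed to 35.2 to 90.7 CPM in untreated WT, 95.2 to 105.7 CPM in WT under DSS, 135.1 to 156.1 CPM in untreated KO and 163 to 220.5 CPM in KO under DSS. The 21 immediate early and dissociation genes summed to 4699 to 5872 CPM in the untreated samples of both genotypes, and to 7291 to 8119 CPM under DSS. Replicate 3 of untreated WT stood apart from the other 2 of its group in several marker sums, among them the leukocyte sum (35.2 CPM) and the goblet sum (18900 CPM against 27100 and 30090). In bulk RNA, fewer cells of a type and less RNA per cell cannot be told apart. All WT library numbers come before all KO numbers, so library order and genotype cannot be told apart either.

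Levels of the 8 genes were compared per kilobase of merged exons (CPM per kb, GENCODE M21 exons). Elf3 was highest, at 527 ± 87.1 CPM per kb (SD, n = 12), and its lowest sample (399.1) lay above every sample of the other 7 genes. Cdx1 followed at 127 ± 66.7 CPM per kb and Hnf4a at 115 ± 8.90. Cdx2 came next at 68.7 ± 31.6 CPM per kb, Klf5 at 50.3 ± 21.9 and Klf4 at 41.2 ± 6.11. Hes1 at 17.1 ± 14.5 CPM per kb and Hnf4g at 17.01 ± 3.10 were lowest. Below Elf3, the ranges of neighbours in this order overlapped in every case. Hnf4a (100.1 to 132.1) lay above all samples of Klf5 (21.1 to 92.3), and Klf4 (33.1 to 56.2) lay above all samples of Hnf4g (11.8 to 21.2). The spread over the 12 samples differed between the genes: the highest sample was 1.32-fold above the lowest for Hnf4a, 1.62-fold for Elf3, 3.46-fold for Cdx2, 5.13-fold for Cdx1 and 43.7-fold for Hes1.

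**Figure D1:**
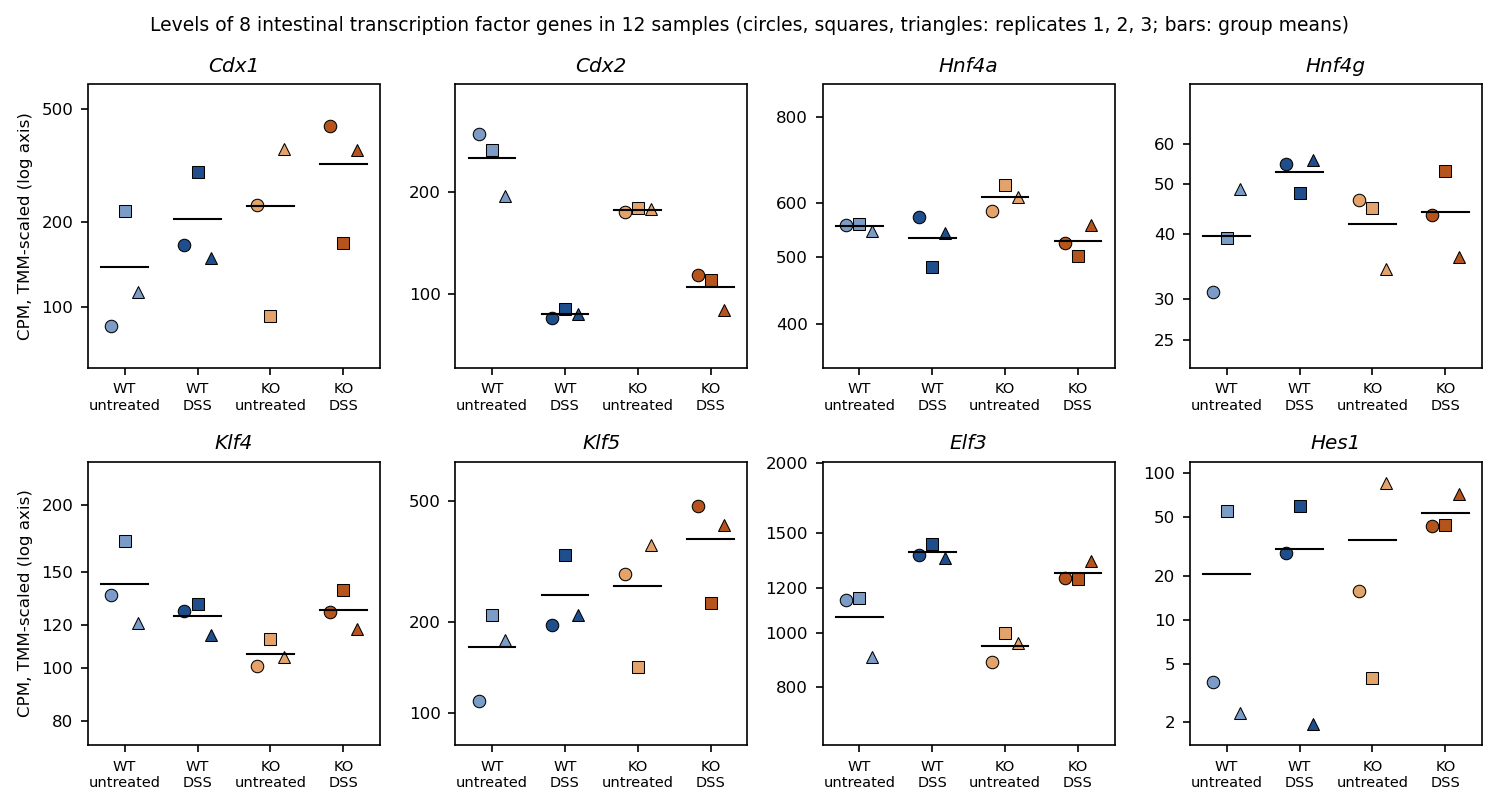
Level of each of the 8 genes in all 12 samples, in CPM scaled by TMM factors on a log axis. Circles, squares and triangles are replicates 1, 2 and 3 of each group, and bars are group means. Cdx2 fell and Elf3 rose under DSS without overlap in either genotype, Hnf4a stayed between 483.5 and 638 CPM, and Cdx1, Klf5 and Hes1 were spread widely within each group.

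Under DSS, 2 of the 8 genes passed in WT, Cdx2 lower and Elf3 higher, where 6.30% of all genes tested passed (edgeR quasi-likelihood test, Benjamini-Hochberg adjusted p under 0.05). The same 2 genes passed in KO in the same directions, where 3.92% of all genes passed. Of the 12522 genes, 3.50% passed as lower and 2.80% as higher in WT, and 2.04% and 1.88% in KO. Sample ranges did not overlap between untreated and DSS for 2 of the 8 in WT, against 20.6% of all genes, and for 4 of the 8 in KO, against 24.3%. Between genotypes, 0 of the 8 passed in untreated cells, where 3.48% of all genes passed, 1.72% as higher and 1.76% as lower in KO. The ranges of untreated KO and WT did not overlap for 3 of the 8 (Cdx2, Hnf4a and Klf4), against 19.3% of all genes. Under DSS 0 of the 8 passed between genotypes (3.11% of all genes), and ranges did not overlap for 1 of the 8, Elf3, against 22.3%. For the interaction, taken as the KO change under DSS less the WT change, 0 of the 8 passed (1.70% of all genes). At an unadjusted edgeR p under 0.05 these counts of 0 became 2, 0 and 2, where 15.4%, 14.6% and 10.6% of all genes had such a p. Under DESeq2 the counts became 2, 0 and 1, where 790, 661 and 360 of all genes passed. Under limma voom they were 0 in each.

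**Figure D2:**
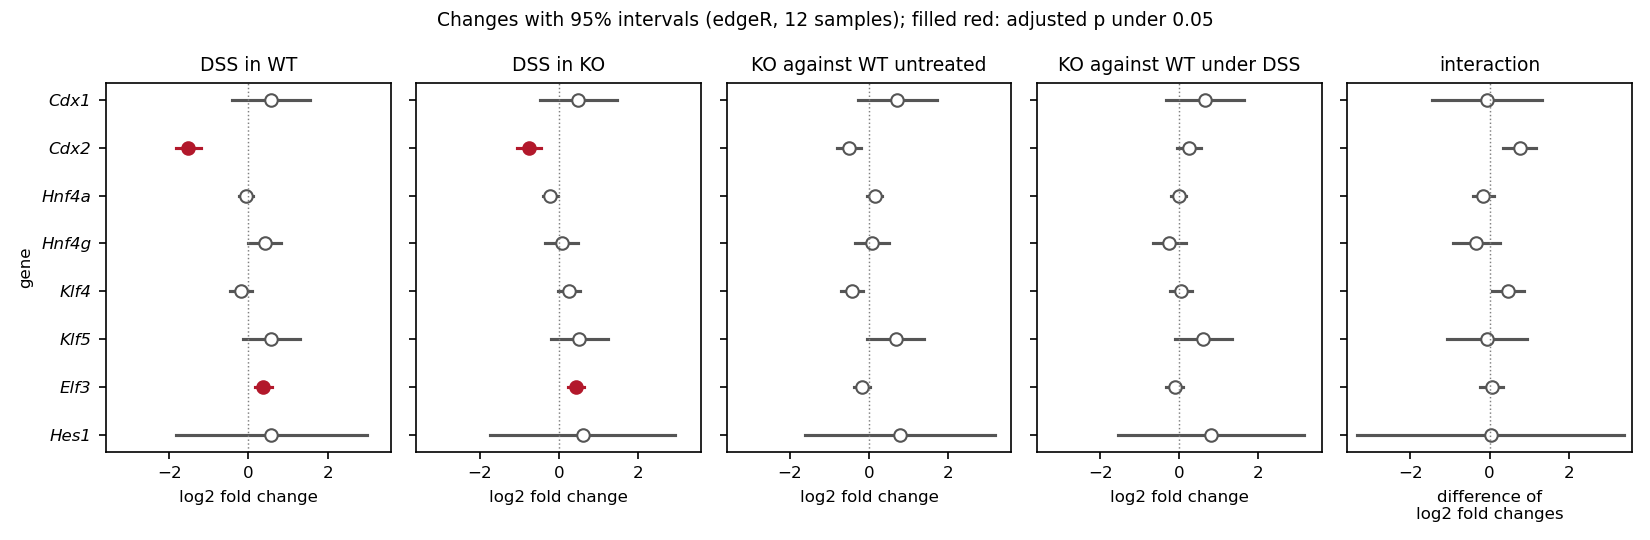
Log2 fold changes of the 8 genes with 95% intervals in the 4 comparisons, and the difference of the DSS changes (KO minus WT) at the right, from the edgeR fit over 12 samples. Filled red points had an adjusted p under 0.05, which only Cdx2 and Elf3 reached in this fit, both in the DSS comparisons. The intervals of Hes1 span over 4 log2 units.

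Cdx2 (ENSMUSG00000029646.3, chromosome 5 from 147300805 to 147307270 on the minus strand of GRCm38) fell under DSS in both genotypes. In untreated WT its level was 295, 264.9 and 194.2 CPM in replicates 1 to 3, and in WT under DSS it was 85.3, 90.5 and 87.6 CPM. In untreated KO it was 174.2, 178.8 and 177.6 CPM, and in KO under DSS 114, 110.6 and 89.9 CPM. Every DSS sample lay below every untreated sample, also across genotypes. DSS took Cdx2 to 0.349 of the untreated level in WT, or -1.52 on the log2 scale (SE 0.14, edgeR adjusted p 9.21e-06). The KO level went to 0.593 of the untreated one, or -0.755 in log2 (SE 0.14, edgeR adjusted p 0.00727). Both calls held when any 1 of the 12 samples was left out (edgeR adjusted p up to 0.000187 in WT and 0.0424 in KO).

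Before treatment, all 3 KO samples had less Cdx2 than all 3 WT samples, and under DSS the genotypes overlapped. The untreated log2 difference of KO from WT was -0.507 (SE 0.14), with an edgeR adjusted p of 0.0615, which did not pass. Without replicate 3 of untreated WT, the lowest of its group, it was -0.66 and passed (edgeR adjusted p 0.00367), and it also passed under DESeq2 (-0.52, adjusted p 0.0162) and when genes with few counts were kept in the edgeR fit (-0.49, adjusted p 0.0221). Under DSS the difference was 0.25 (SE 0.14, edgeR adjusted p 0.448). The interaction was 0.76 (95% interval 0.34 to 1.19), with an edgeR adjusted p of 0.0798. It passed without the same untreated WT sample (0.92, edgeR adjusted p 0.00420), under DESeq2 (0.77, adjusted p 0.0198) and with genes of few counts kept (0.75, edgeR adjusted p 0.0187). A smaller DSS decrease in KO thus did not pass in the edgeR fit over all samples, and its call turned on 1 untreated WT sample, the tool and the filter on low counts.

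Both marker sums given above were higher under DSS within each genotype, where Cdx2 was lower. Across groups, untreated KO had a higher leukocyte sum and more Cdx2 than WT under DSS, and a link was not tested. With the mean log2 CPM of the leukocyte markers as a covariate, the DSS change of Cdx2 was -1.95 in WT (edgeR adjusted p 0.0121). In KO it was -0.992 (edgeR adjusted p 0.0451), and both passed. With the mean of the immediate early and dissociation genes as the covariate it was -0.9998 in WT (edgeR adjusted p 0.683) and -0.364 in KO (edgeR adjusted p 0.922), and neither passed. The 4 groups accounted for a share of 0.934 of the variance of the leukocyte covariate and 0.944 of that of the immediate early covariate, so treatment and these covariates can hardly be told apart in 12 samples.

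Cdx1 (ENSMUSG00000024619.8, chromosome 18 from 61018862 to 61036199, minus strand), the paralogue of Cdx2, had no change that passed. Its level was 85.1, 217.5 and 112.5 CPM in untreated WT and 165.2, 300.6 and 148.2 CPM in WT under DSS. The KO samples had 228.6, 92.6 and 361.6 CPM untreated and 437, 168 and 359 CPM under DSS. The SD within a group was largest in KO, at 134.5 CPM untreated and 138.4 CPM under DSS, and all groups overlapped. The DSS change on the log2 scale was 0.57 in WT (95% interval -0.42 to 1.56, edgeR adjusted p 0.625). The KO change was 0.50 (95% interval -0.48 to 1.48, edgeR adjusted p 0.686). Neither genotype difference passed (0.72 untreated and 0.65 under DSS, edgeR adjusted p 0.525 and 0.586). When genes with few counts were kept in the fit, all 4 of these comparisons passed at nearly the same fold changes, with edgeR adjusted p between 5.86e-06 and 0.0124. The lower p thus reflects a smaller fitted spread for Cdx1, while its replicates differed within each group as given above.

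The balance of the CDX pair was compared within each library as the ratio of the length-scaled levels. In untreated WT, Cdx1 stood at 0.373 to 1.06 times the level of Cdx2, and in WT under DSS at 2.19 to 4.29 times, without overlap. In KO the ratio was 0.669 to 2.63 untreated and 1.96 to 5.16 under DSS, and these ranges overlapped. These ratios were not tested.

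Hnf4a (ENSMUSG00000017950.15, chromosome 2 from 163506808 to 163572910, plus strand) was the steadiest of the 8. It was 558.2, 559.4 and 546.8 CPM in untreated WT and 571.9, 483.5 and 543.4 CPM in WT under DSS. Untreated KO samples had 584.1, 638 and 613.2 CPM, and KO samples had 525.2, 502.9 and 556.9 CPM under DSS. All 3 untreated KO samples lay above the other 9 samples, by little. The DSS change in KO was -0.21 (95% interval -0.40 to -0.03), with an edgeR adjusted p of 0.234, and in WT it was -0.06 (95% interval -0.24 to 0.13, edgeR adjusted p 0.822). Hnf4a overlaps 2 annotated genes, Hnf4aos and Gm25881, but shares no exon bases with them.

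Hnf4g (ENSMUSG00000017688.13, chromosome 3 from 3508030 to 3658052, plus strand), the second HNF4 receptor, was measured on 212 to 369 counts per sample. Its level was 30.9, 39.4 and 49.0 CPM in untreated WT and 54.8, 48.1 and 55.8 CPM in WT under DSS. The KO samples stood at 46.6, 45.04 and 34.2 CPM untreated and at 43.7, 53.1 and 36.2 CPM under DSS. Ranges overlapped in each of the 4 comparisons, and the log2 change with DSS came to 0.41 in WT (95% interval -0.009 to 0.83, edgeR adjusted p 0.298) and 0.08 in KO (edgeR adjusted p 0.903). The ratio of Hnf4a to Hnf4g per length was 6.08 to 9.84 in untreated WT and 5.31 to 5.68 in WT under DSS. The KO ratio was 6.83 to 9.76 untreated and 5.16 to 8.39 under DSS, with overlap.

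Klf4 (ENSMUSG00000003032.8, chromosome 4 from 55527143 to 55532466, minus strand) was 136.4, 171.4 and 121.1 CPM in untreated WT and 127.3, 131.1 and 115 CPM in WT under DSS. The KO values were 101, 113 and 105 CPM untreated and 126.6, 139.5 and 118.2 CPM under DSS. The 3 untreated KO samples were the lowest of the 12, below each of the other groups. The untreated difference of KO from WT was -0.43 (SE 0.13, edgeR adjusted p 0.0958) and did not pass, except without replicate 3 of untreated WT (-0.53, edgeR adjusted p 0.0247) and under DESeq2 (-0.44, adjusted p 0.0401). The DSS change was -0.20 in WT (edgeR adjusted p 0.493) and 0.27 in KO (edgeR adjusted p 0.339), and the interaction was 0.47 (95% interval 0.07 to 0.86, edgeR adjusted p 0.345).

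Klf5 (ENSMUSG00000005148.7, chromosome 14 from 99298691 to 99315036, plus strand) was 109.9, 209.7 and 174 CPM in untreated WT and 194.2, 331.8 and 209.5 CPM in WT under DSS. Its KO levels were 286.9, 141.3 and 357.3 CPM untreated and 479.8, 229.7 and 415.7 CPM under DSS. Ranges overlapped in each of the 4 comparisons, while the DSS sample was above the untreated sample of the same genotype and replicate number in 6 of 6 cases, by 1.16-fold to 1.77-fold. Neither DSS change passed: the log2 change was 0.58 (SE 0.34) for WT and 0.52 (SE 0.34) for KO, with edgeR adjusted p of 0.431 and 0.512. In a fit with the replicate number within each genotype as a block it was 0.58 in WT (edgeR adjusted p 0.0162) and 0.55 in KO (edgeR adjusted p 0.0277), and both passed. That fit was chosen after the values had been seen. Over all genes, deviations of same-numbered samples from their group means correlated only weakly, in KO (r of 0.204, 0.106 and 0.127) and in WT (0.0138, 0.12 and 0.128). With genes of few counts kept, Klf5 also passed in these 2 comparisons and in both genotype comparisons (edgeR adjusted p between 1.82e-05 and 0.00504). As for Cdx1, the fold changes were nearly the same and the fitted spread was smaller. The ratio of Klf4 to Klf5 per length was 1.19 to 2.12 in untreated WT and 0.674 to 1.12 in WT under DSS, against 0.501 to 1.36 and 0.45 to 1.04 in KO.

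Elf3 (ENSMUSG00000003051.12, chromosome 1 from 135253575 to 135258568, minus strand) rose under DSS in both genotypes. It was 1141, 1150 and 905 CPM in untreated WT and 1371, 1433 and 1354 CPM in WT under DSS. Elf3 in KO was 884.9, 997.8 and 958.8 CPM untreated and 1248, 1243 and 1337 CPM under DSS. Every DSS sample lay above every untreated sample, also across genotypes. The rise was 1.30-fold in WT, 0.38 on the log2 scale (SE 0.10, edgeR adjusted p 0.0279). For KO the rise was 1.35-fold, or 0.43 on that scale (SE 0.10, edgeR adjusted p 0.0204). The interaction was 0.05 (95% interval -0.24 to 0.34, edgeR adjusted p 0.965), and neither genotype difference passed (-0.17 untreated and -0.12 under DSS, edgeR adjusted p 0.449 and 0.640). Without replicate 3 of untreated WT the untreated difference was -0.27 and passed (edgeR adjusted p 0.0387).

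These Elf3 calls were close to the threshold. In WT the call was lost when any 1 of the 3 DSS samples of WT was left out (log2 fold changes of 0.35 to 0.40, edgeR adjusted p up to 0.110), and when the fit held only the 6 WT samples (0.38, edgeR adjusted p 0.149). Over all 12 fits that left out 1 sample, the log2 fold change in WT was 0.27 to 0.44. In KO the call was lost when any 1 of the 6 KO samples was left out (edgeR adjusted p up to 0.107), at log2 fold changes of 0.38 to 0.47 over all 12 such fits. With the leukocyte covariate the change was -0.11 in WT (edgeR adjusted p 0.849) and 0.16 in KO (edgeR adjusted p 0.616). With the immediate early covariate it was 0.44 and 0.48 (edgeR adjusted p 0.866 and 0.756). Elf3 shares 162 exon bases (7.31% of its exons) with the antisense gene Gm26642, which had 31 counts in all 12 samples, and the library method does not mark strand.

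The bases before the annotated start of Cdx2 and of Elf3 are shown because these were the 2 genes that passed. They were read from the RefSeq promoter table (GRCm38.p6), which gave entries for 4 of the 8 genes, and end at the base before the GENCODE gene start. Both regions are on the minus strand and are written 5′ to 3′ as the gene is read, chr5:147307271-147307499 for Cdx2 (229 bases) and chr1:135258569-135258722 for Elf3 (154 bases). Capitals mark matches, on either strand, to any of 6 motifs: an NF-kB motif (GGG, any 2 bases, then TTTCC), an ETS core (CCGGAAG), an HNF4 motif (CAAAGTCCA), a CDX core (TTTATNG), a KLF core (CCACCC) and a TATA box (TATAAA). No 2 matches overlap.
Cdx2: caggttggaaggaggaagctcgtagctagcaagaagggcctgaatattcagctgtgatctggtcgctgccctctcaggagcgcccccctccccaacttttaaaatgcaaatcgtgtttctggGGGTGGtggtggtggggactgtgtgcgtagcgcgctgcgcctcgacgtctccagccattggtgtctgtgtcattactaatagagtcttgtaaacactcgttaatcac
Elf3: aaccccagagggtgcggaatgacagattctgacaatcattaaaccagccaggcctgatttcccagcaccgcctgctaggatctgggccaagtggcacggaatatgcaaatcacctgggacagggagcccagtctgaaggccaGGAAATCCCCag
The Cdx2 region held 1 KLF core, on the opposite strand, which 25.9% of 32851 promoter windows of the same length hold. The Elf3 region held 1 NF-kB motif match, also on the opposite strand and starting 12 bases before the gene start, which 0.791% of windows of that length hold. These are matches of letters and were not tested as binding sites.

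Hes1 (ENSMUSG00000022528.7, chromosome 16 from 30064384 to 30067796, plus strand) varied more between replicates than any difference between groups. It was 3.79, 55.6 and 2.32 CPM in untreated WT and 28.7, 59.9 and 1.96 CPM in WT under DSS. Hes1 in KO was 15.8, 4.03 and 85.6 CPM untreated and 43.8, 44.6 and 71.6 CPM under DSS. The counts behind these values were 12 to 720 reads per sample. The log2 change with DSS was 0.57 in WT (95% interval -1.84 to 2.98, edgeR adjusted p 0.878) and 0.60 in KO (95% interval -1.73 to 2.93, edgeR adjusted p 0.865). The differences of KO from WT were 0.79 untreated (95% interval -1.61 to 3.18, edgeR adjusted p 0.830) and 0.81 under DSS (95% interval -1.54 to 3.16, edgeR adjusted p 0.810). They passed at nearly the same size when genes with few counts were kept in the fit (0.81 in both, edgeR adjusted p 0.0140 and 0.0102). As for Cdx1 and Klf5, the lower p reflects a smaller fitted spread, while the replicates differed as given above. Why the fitted spread was smaller was not tested. In the fit of the 12522 genes, the SE of the Hes1 change with DSS was 1.125 in WT and 1.088 in KO. With that SE, differences of the size seen for Cdx2 or Elf3 were not detectable for Hes1.

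Cdx1, Klf5 and Hes1 were high and low in largely the same replicates. In WT, replicate 2 was the highest of the untreated group and of the DSS group for all 3 genes. In KO, replicate 2 was the lowest of the untreated group for all 3 genes, and also the lowest under DSS for Cdx1 and Klf5. Same-numbered samples of a genotype have adjacent library numbers, and the labels do not say what else they share. Over the 12 samples the log2 CPM of Cdx1 and Klf5 had a Pearson correlation of 0.972 and a Spearman rho of 0.979, 0.959 without the 2 samples farthest from the median of Cdx1, and 0.970 for deviations from the group means. Cdx1 and Hes1 had r = 0.821 (rho 0.776), and Klf5 and Hes1 had r = 0.724 (rho 0.727). These are given as descriptions, since the labels do not say whether same-numbered samples are independent of each other. Among 8860 genes whose mean log2 CPM was 3 or more, Klf5 was the one most correlated with Cdx1, and Cdx1 the one most correlated with Klf5.

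**Figure D3:**
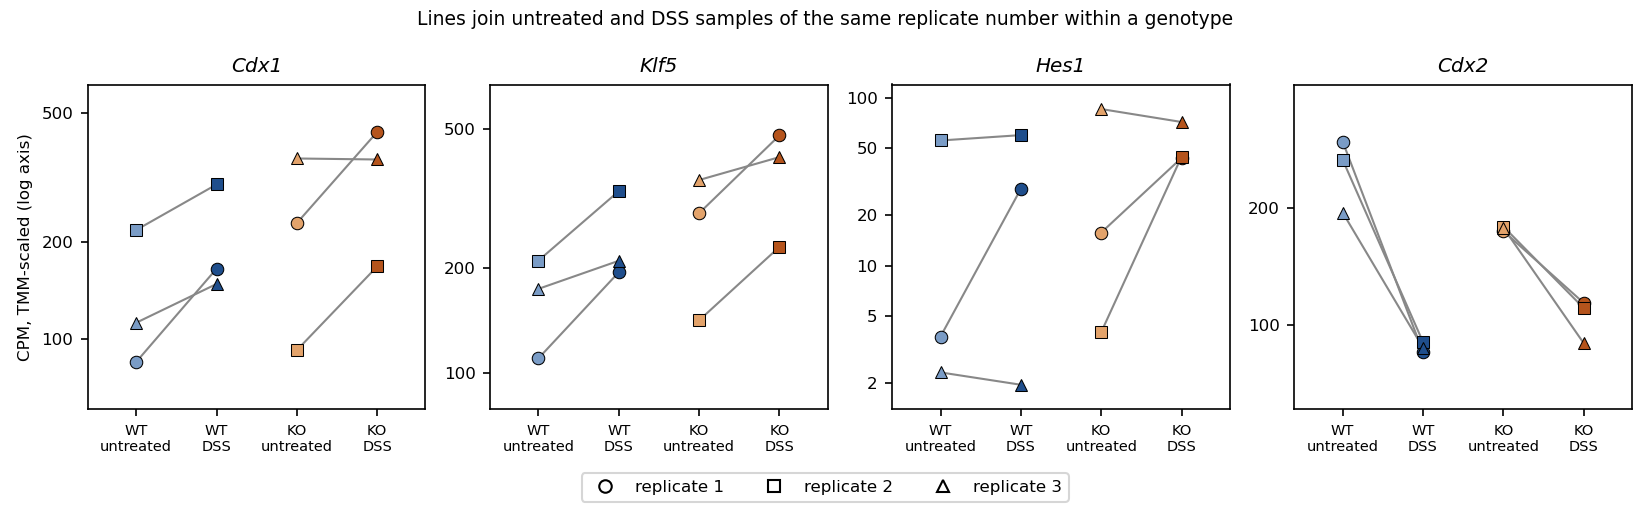
Levels of Cdx1, Klf5, Hes1 and Cdx2 in CPM scaled by TMM factors (log axis), with lines joining the untreated and DSS samples of the same genotype and replicate number. Cdx1 and Klf5 keep a wide spread between replicate numbers within each genotype (Klf5 higher under DSS in 6 of 6 pairs, Cdx1 in 5 of 6), whereas Cdx2 was lower under DSS in 6 of 6 pairs.

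The other genes with the most similar patterns over the 12 samples were named by the same measure. For Cdx2 they were Mxd1 (r = 0.985) and St3gal3 (0.982), for Elf3 Irf1 (0.961) and C2 (0.934), and for Hes1 Lamp1 (0.979) and Mcur1 (0.972). For Klf5 and Cdx1 the next were Selenoo (0.957) and Txndc11 (0.964). For the steadier genes the best values were lower: 0.873 for Hnf4a with Fopnl, 0.901 for Hnf4g with Copg1 and 0.894 for Klf4 with Alg9. Mxd1 encodes a MYC antagonist and Irf1 an interferon-regulated transcription factor.

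Many enterocyte genes reported as targets of CDX and HNF4 factors fell under DSS in both genotypes. The list was chosen with earlier results of these data known. Its counts here and below are thus a description and not a test against all genes. Of 40 such genes listed, 33 were tested, and in WT 15 fell, 1 rose and 17 did not pass, with a median log2 fold change of -0.46 against 0.006 over all 12522 genes, 3.50% of which fell. In KO 9 fell, 2 rose and 22 did not pass, with a median of -0.31 against 0.015 over all genes, 2.04% of which fell. The 11 KO calls became 6 without replicate 2 of untreated KO and 7 without replicate 1 of KO under DSS. Of the genes that fell, 9 did so in both genotypes, which is 9 of 15 in WT and 9 of 9 in KO. Slc9a3, the apical sodium-proton exchanger, went from 126 ± 8.43 CPM (SD, n = 3) to 10.5 ± 1.44 CPM in WT (log2 fold change -3.59, edgeR adjusted p 3.66e-09), and from 90.02 ± 6.63 to 16.5 ± 0.942 CPM in KO (-2.45, edgeR adjusted p 6.83e-07). Alpi, the intestinal alkaline phosphatase of the brush border, fell by 3.06 in WT and by 1.17 in KO on the log2 scale. The carbonic anhydrase gene Car1 fell by 2.34 and by 0.650, Car4 fell by 2.09 and by 1.95, and Guca2a, which encodes guanylin, fell by 2.41 and by 1.23. Krt20, a keratin of mature surface cells, fell by 1.33 and by 1.34, and Slc26a3, the chloride-bicarbonate exchanger, fell by 1.51 and by 1.69. The gene that rose in WT was the transmembrane mucin gene Muc13 (0.48, edgeR adjusted p 0.0185), and those that rose in KO were the goblet mucin gene Muc2 (0.70) and the gluconeogenic enzyme gene Pck1 (0.94). With the immediate early covariate described for Cdx2, 1 of the 33 passed in WT and 0 in KO, and with the leukocyte covariate 9 passed in WT.

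**Figure D4:**
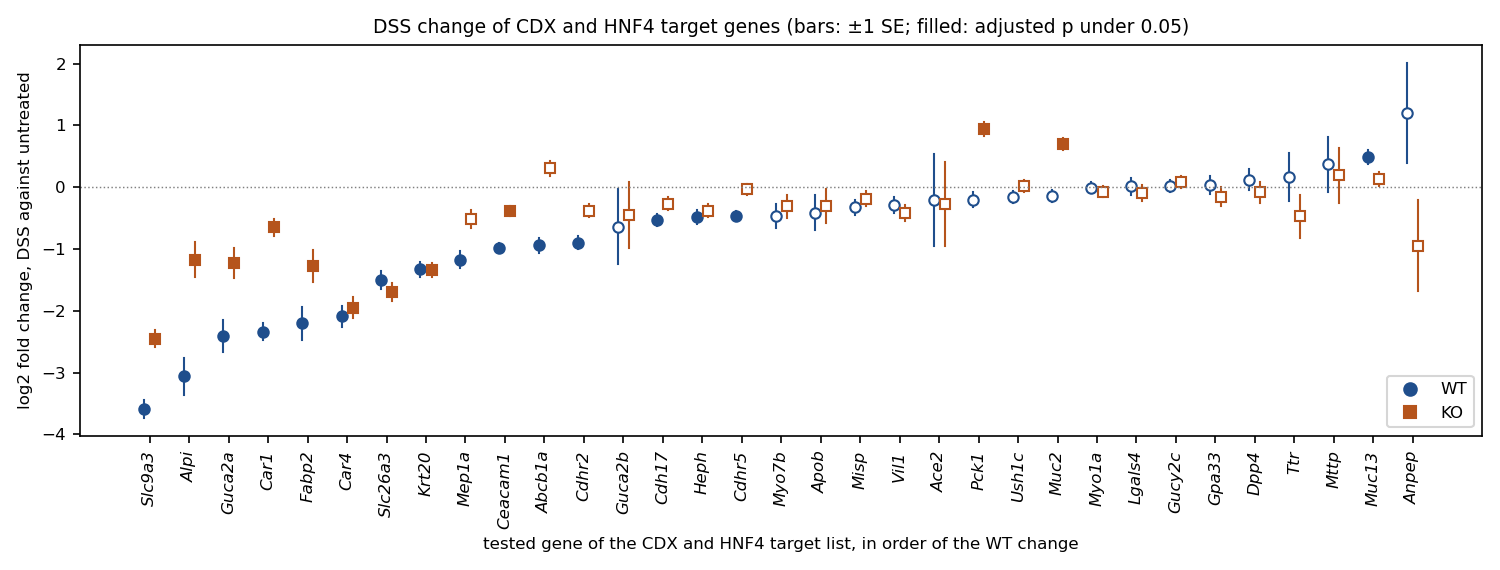
Log2 fold change under DSS of the 33 tested CDX and HNF4 target genes in WT (blue circles) and KO (orange squares), ordered by the WT change, with bars of 1 SE. Filled symbols had an adjusted p under 0.05, 16 genes in WT and 11 in KO. Slc9a3, Alpi and Car1 lie lower in WT than in KO, and their interactions passed. Those of Krt20, Car4 and Slc26a3 did not.

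For 7 of the 33 target genes the DSS change itself differed between genotypes, in each case with the more positive change in KO, where 1.17% of all genes had a positive interaction that passed. They were Alpi (1.89), Car1 (1.69), Pck1 (1.14), Slc9a3 (1.13), Muc2 (0.84), Ceacam1 (0.606) and the efflux pump gene Abcb1a (1.25), with edgeR adjusted p of 0.0250 or lower. Car1 differed between genotypes in untreated cells, with 7068 ± 1045 CPM (SD, n = 3) in WT and 2552 ± 223.5 CPM in KO. Under DSS its WT and KO means were 1395 ± 203 and 1626 ± 236 CPM, and the difference did not pass. Untreated KO cells had less Alpi (-1.19, edgeR adjusted p 0.0237), Car1 (-1.47, edgeR adjusted p 1.79e-05), Ceacam1 (-0.70, edgeR adjusted p 0.000171), Muc2 (-0.42, edgeR adjusted p 0.0281) and Cdhr2 (-0.51, edgeR adjusted p 0.0150) than untreated WT cells. Car4 (0.68, edgeR adjusted p 0.0346) and Ttr (1.78, edgeR adjusted p 0.0154) were higher. Of the target genes that passed between genotypes under DSS, 6 were higher in KO and 1, Vil1, was lower. Pck1 (1.01, edgeR adjusted p 0.000197) and Abcb1a (0.91, edgeR adjusted p 0.00072) were among the 6, and neither passed untreated (-0.13 and -0.34). Muc2, lower in untreated KO, was higher in KO under DSS (0.42, edgeR adjusted p 0.0313). Muc13, Pck1, Abcb1a, Cdhr2 and Ttr are named here after their values were seen. Of the 33, 7 passed in untreated cells and 7 under DSS. The untreated count became 13 without replicate 3 of untreated WT, 4 without replicate 2 of untreated WT, and 2 or 3 without any 1 of the untreated KO samples. The count under DSS became 2 to 4 without any 1 of the 6 DSS samples, and the interaction count became 12 without replicate 3 of untreated WT. The interaction of Alpi was lost in 8 of the 12 fits that left out 1 sample, and those of Car1, Pck1, Slc9a3, Muc2, Ceacam1 and Abcb1a in none.

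Genes reported as targets of Klf4 and Klf5 include cell cycle regulators and goblet and enterocyte genes, and 12 of 13 listed were tested. In WT under DSS 1 rose and 2 fell, and in KO 1 rose and 3 fell. Cdkn1a, the cell cycle inhibitor p21, fell in both (-0.46, edgeR adjusted p 0.0137, and -0.70, edgeR adjusted p 0.00140). Ccnd1, cyclin D1, rose in WT from 110 ± 9.55 to 159 ± 6.85 CPM (SD, n = 3; 0.53, edgeR adjusted p 0.0128), and in KO it was 77.4 ± 5.79 CPM untreated and 62.7 ± 6.84 CPM under DSS (-0.30, edgeR adjusted p 0.210). Cdk1, the mitotic kinase, fell in KO (-0.87, edgeR adjusted p 0.00201) and was -0.30 in WT (edgeR adjusted p 0.258). Ccnd1 had a negative interaction (-0.83, edgeR adjusted p 0.0156).

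All 10 genes reported as Elf3 targets were tested, and 4 passed under DSS in each genotype, 2 higher and 2 lower in WT and 4 higher in KO. Nos2, inducible nitric oxide synthase, rose from 5.87 ± 1.61 to 49.2 ± 5.75 CPM (SD, n = 3) in WT and from 21.7 ± 1.80 to 53.4 ± 9.67 CPM in KO. Il1rn, the interleukin-1 receptor antagonist, rose by 0.68 in WT (edgeR adjusted p 0.00235) and by 0.69 in KO (edgeR adjusted p 0.00419). Ang4, an antimicrobial ribonuclease of the gut, fell in WT (-1.92, edgeR adjusted p 0.000877) and rose in KO (1.41, edgeR adjusted p 0.0141). Sprr2a1 fell in WT (-1.27, edgeR adjusted p 0.000920) and Sprr1a rose in KO (1.56, edgeR adjusted p 0.0287), both of which encode small proline-rich proteins. Ang4 and Sprr2a1 belong to families of closely similar genes, so reads could be split among copies.

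Relatives of the 8 genes were followed as families. Of the other KLF and SP family genes 15 of 24 were tested and 0 passed in any of the 5 comparisons by edgeR. At an unadjusted edgeR p under 0.05 there were 3, 3, 3, 1 and 2, where 17.6%, 15.9%, 15.4%, 14.6% and 10.6% of all genes had such a p. The order is DSS in WT, DSS in KO, untreated genotypes, genotypes under DSS and interaction. By DESeq2 there were 1, 0, 3, 0 and 0 in this order, and by limma voom 0 in each. Of the ETS family 15 of 16 were tested. Ets1, an ETS factor best known from lymphocytes, rose under DSS in WT from 1.24 ± 0.195 to 7.84 ± 1.22 CPM (SD, n = 3; edgeR adjusted p 4.43e-05), and its KO values were 11.7 ± 1.93 CPM untreated and 17.98 ± 1.04 CPM with DSS (edgeR adjusted p 0.192). These 4 means had the order of the leukocyte marker sums, and with the leukocyte covariate the Ets1 calls were lost. That covariate left 55 genes passing between untreated genotypes, against 436 without it. With the immediate early covariate the Ets1 calls were also lost, except that between untreated genotypes. Both covariates were nearly set by the groups, and a cause was not tested. Etv4 fell in both genotypes (-1.51, edgeR adjusted p 0.0220, and -1.75, edgeR adjusted p 0.0107). Its call was lost without replicate 3 of untreated WT or replicate 2 or 3 of WT under DSS in WT, and without replicate 2 of KO under DSS in KO.

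Of 39 genes of the Notch pathway, in which Hes1 is a target, 29 were tested. Atoh1, the secretory fate factor that Hes1 represses, was higher in KO, at 83.8 ± 9.41 against 52.3 ± 3.25 CPM (SD, n = 3) untreated (0.68, edgeR adjusted p 0.00667) and 108 ± 9.87 against 70.1 ± 3.12 CPM under DSS (0.63, edgeR adjusted p 0.0127). The call under DSS was lost without replicate 2 or 3 of WT under DSS, or replicate 2 of KO under DSS (edgeR adjusted p up to 0.0718). It was also lost with either covariate. The untreated call held in all 12 fits that left out 1 sample. It was lost with only the 6 samples compared and with the leukocyte covariate. Psen2, a catalytic subunit of gamma-secretase, rose under DSS in KO (1.001, edgeR adjusted p 0.0384), a call lost in 8 of the 12 fits that left out 1 sample, among them each without a KO sample (edgeR adjusted p up to 0.159). No other gene of this list passed by edgeR in the 5 comparisons. DESeq2 called 2 genes of the list in each comparison except the interaction, where it called 0.

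Among 29 tested genes of 42 other intestinal transcription factors, Pparg, the nuclear receptor of lipid metabolism, fell in the same 2 comparisons as Cdx2. It went from 170 ± 11.3 to 80.04 ± 4.25 CPM (SD, n = 3) in WT (-1.09, edgeR adjusted p 0.000120) and from 105 ± 8.75 to 69.4 ± 12.4 CPM in KO (-0.60, edgeR adjusted p 0.0202), and it was lower in untreated KO than in untreated WT (-0.69, edgeR adjusted p 0.00831). Isx, a homeobox gene regulated by Cdx2, fell in WT (-0.76, edgeR adjusted p 0.0296), and its KO value was as large (-0.76, edgeR adjusted p 0.0541) without passing. Its level was lower in KO both untreated (-1.46, edgeR adjusted p 0.000649) and under DSS (-1.46, edgeR adjusted p 0.00104). Id2, a repressor of basic helix-loop-helix factors, fell in WT (-0.90, edgeR adjusted p 0.00565), and its KO value was -0.24 (edgeR adjusted p 0.575). Sox9, a factor of crypt progenitors, had a higher level in KO when both genotypes were given DSS (0.83, edgeR adjusted p 0.0139), as was Id2 (0.71, edgeR adjusted p 0.0446), while Id3 was lower (-0.83, edgeR adjusted p 0.0303). Ascl2, a factor of crypt base stem cells, fell in KO (-3.72, edgeR adjusted p 0.0193), from 8.37 ± 1.93 to 0.628 ± 0.229 CPM (SD, n = 3), and its WT value was -2.32 (edgeR adjusted p 0.105). Tcf7, a Wnt effector also known from T cells, rose in WT from 0.197 ± 0.222 to 2.00 ± 0.386 CPM (SD, n = 3; edgeR adjusted p 0.0166). Its untreated WT mean lay below the level taken as detectable. The call was lost in 2 of the 12 fits that left out 1 sample, under limma voom, with only the 6 samples compared and with either covariate. Tcf7 was higher in untreated KO than in untreated WT (3.73, edgeR adjusted p 0.00933), a call lost with only the 6 samples compared and with the leukocyte covariate. Of these 29 genes, 4 passed under DSS in WT, 2 in KO, 4 between untreated genotypes and 5 between genotypes under DSS. In the interaction 0 passed (5 at an unadjusted edgeR p under 0.05, which 10.6% of all genes had, 0 by DESeq2 and 0 by limma voom). The count in KO became 0 or 1 without any 1 of the 6 KO samples and 4 without replicate 3 of untreated WT, that in WT became 2 without replicate 2 of WT under DSS, and that between genotypes under DSS became 1 to 3 without any 1 of the 6 DSS samples. Of the calls named here, those of Id2 and Pparg in WT, of Isx between genotypes and of Tcf7 between untreated genotypes held in all 12 fits that left out 1 sample. The higher Id2 in KO under DSS was lost in 11 of them.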

How the data were processed

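RNA of 12 samples was sequenced by the SMART-seq2 method with Nextera XT libraries, which keep no strand, per the labels' protocols. The authors deposited raw read counts for each gene: the values are whole numbers with a different total in each sample. The submitters' processing notes name STAR 2.5.2b, featureCounts 1.5.0 and the build GRCm38 (mm10), and the annotation release is not given in the sources used here. Of 46517 gene IDs, 46005 matched a symbol in GENCODE M21 without regard to version, 27555 of them with it. A chi-square comparison of counts found no pair of replicates within sampling noise.

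The filter on low counts (filterByExpr) kept 12522 genes with 99.8% of all counts. Counts were scaled by TMM and fitted in edgeR 4.0.16 (R 4.3.3) with 1 coefficient per group over all 12 samples. Contrasts were tested by the two-sided quasi-likelihood F test, and a gene passed at a Benjamini-Hochberg adjusted p under 0.05 over all genes tested. For log2 CPM, a prior count of 2 was added. The fit was tested on simulated data. DESeq2 1.42.0, limma 3.58.1 (voom), other scalings and filters, covariates, a replicate block and the omission of each sample were alternatives.

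Named genes are the 8 genes, Nfkb2, from each gene list up to 8 genes by smallest adjusted p among those that passed, and for each of the 8 the 2 genes most correlated with it. The 8 genes and the lists were chosen with earlier results of these data known. Levels below 3 counts (0.370 to 0.536 CPM, depending on the library) were taken as not detectable, which covers counting error only. Pairing by replicate number was checked by correlating deviations from group means: all 3 pairs exceeded 0.1 for DSS in KO, and not in the other comparisons.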

Additional observations from a re-analysis of the deposited data

Results flagged for a closer look

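Among the genes named by rule, 13 had a DSS change that differed between genotypes by the interaction test of edgeR. Abcb1a and Pck1, counted in the CDX and HNF4 list but not named by rule, also passed and are given above. Values are the DSS change in KO minus that in WT on the log2 scale, with the edgeR adjusted p. None of the 8 transcription factor genes was among them. Of the CDX and HNF4 targets named by rule, Car1 (1.69, adjusted p 0.000199), Alpi (1.89, 0.0250), Slc9a3 (1.13, 0.00675), Muc2 (0.84, 0.00456) and Ceacam1 (0.606, 0.0114) were positive. Other goblet or antimicrobial genes were also positive: Ang4 (3.33, adjusted p 0.000506), Clca1 (2.34, 5.55e-05) and Retnlb (2.53, 0.00950). Hspa1a was positive (1.91, adjusted p 0.00173), and it has a near-identical neighbour, Hspa1b. Ets1 (-2.03, adjusted p 0.0101), Nos2 (-1.77, 0.00456), Mcm5 (-1.26, 0.0123) and Ccnd1 (-0.834, 0.0156) were negative. The interaction of Ets1 did not pass under limma voom or with either covariate, and that of Alpi was lost in 8 of the 12 fits that left out 1 sample.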

How the results depend on the processing

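Over the fits that each left out 1 sample, the counts of genes passing ranged from 483 to 958 for DSS in WT, 235 to 710 for DSS in KO, 212 to 725 for untreated genotypes, 160 to 566 for genotypes under DSS and 152 to 350 for the interaction. The counts under other settings that differed by over 1.5 times from the edgeR fit (789, 491, 436, 390 and 213), all with the cause not tested, were as follows. DESeq2 gave 800 for DSS in KO, 790 for untreated genotypes, 661 under DSS and 360 for the interaction, and keeping all genes with a count gave 776, 703, 642 and 356. Fitting only the 6 samples compared gave 453 for DSS in WT and 161 for untreated genotypes. The leukocyte covariate gave 141 and 148 for DSS in WT and KO and 55 and 102 for the genotypes, and the immediate early covariate 6 and 0 for DSS, 120 for genotypes under DSS and 137 for the interaction. Both covariates were nearly set by the groups, as given above. Scaling by library totals only moved the median of all genes by up to 0.110 and -0.122.

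The replicate block gave counts of 695, 409, 345, 290 and 186, of which 676, 389, 338, 283 and 181 were shared, and changed no call of the 8 genes. Same-numbered samples correlated at 0.106 to 0.204 for DSS in KO, 0.0138 to 0.128 for DSS in WT, and from -0.175 to -0.0103 between genotypes. With the number within genotype as a block, chosen after seeing the data, 892, 616 and 263 genes passed for DSS in WT, DSS in KO and the interaction.

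The DSS changes of Cdx2 kept their direction in WT and KO in every alternative run, and no sign change among the 8 genes was of a value that passed except that of Elf3 in WT with the leukocyte covariate (-0.11). With that covariate the signs also changed for Cdx1 (-0.72, -0.25, -0.66, -0.20 and 0.46 in the order DSS in WT, DSS in KO, untreated genotypes, genotypes under DSS, interaction), for Hes1 in the first 4 of these (-3.38, -1.81, -3.71 and -2.14), for Hnf4a untreated (-0.073), for Cdx2 (-0.0023), Hnf4g (0.28) and Klf4 (-0.14) between genotypes under DSS, and for Klf5 in the interaction (0.11). With the immediate early covariate they changed for Cdx1 (-2.13 and -1.49 for DSS, 0.64 for the interaction), Klf5 (-1.15 and -0.77, 0.37), Hes1 (-10.8 and -7.83), and in KO for Hnf4g (-0.13) and Klf4 (-0.073). With library totals only they changed for Hnf4a in WT (0.038) and for Elf3 (-0.080) and Hes1 (-0.12) in the interaction, and with the replicate block for Hes1 in the interaction (-0.35). Leaving out 1 sample each, signs changed for the interactions of Cdx1 (-0.56 to 0.43), Elf3 (-0.0072 to 0.15), Hes1 (-2.71 to 1.87) and Klf5 (-0.36 to 0.23), for DSS in WT of Hes1 (-0.41 to 3.30) and Hnf4a (-0.11 to 0.0062) and in KO of Hnf4g (-0.079 to 0.20), for untreated genotypes of Hes1 (-1.05 to 3.52) and Hnf4g (-0.080 to 0.26), and under DSS of Hnf4a (-0.079 to 0.041) and Klf4 (-0.034 to 0.097). The cause was not tested.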

Other observations

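Clca1 and Retnlb, markers of goblet cells, fell under DSS in WT and rose in KO. Of 9 goblet markers tested, 2 fell in WT (Clca1 and Retnlb) and 4 rose in KO (Muc2, Fcgbp, Clca1 and Retnlb), by edgeR, and 3 had an interaction that passed (Muc2, Clca1 and Retnlb). Clca1, a secreted protein of goblet cells, was 19690, 16420 and 10420 CPM in untreated WT and 7477, 7559 and 7386 CPM in WT under DSS (log2 fold change -1.05, edgeR adjusted p 0.000616). In KO it was 6607, 6534 and 5974 CPM untreated and 15890, 16170 and 14530 CPM under DSS (1.29, edgeR adjusted p 0.000291). Spdef, the factor of goblet cell maturation, passed in none of the 5 comparisons by edgeR, where its unadjusted p was over 0.05 in each.

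Of 10 proliferation markers, 5 fell under DSS in KO (Top2a, Cdk1, Pcna, Mcm2 and Mcm5), where 2.04% of all genes fell. In WT 0 passed by edgeR (2 by DESeq2, 0 by limma voom), where 3.50% of all genes fell. The change was negative for all 10 in both genotypes. In WT 4 had an unadjusted edgeR p under 0.05, as had 17.6% of all genes. Only Mcm5 had an interaction that passed by edgeR. The summed level of the 10 markers was 543.2 to 562.4 CPM in KO under DSS, 883 to 960 CPM in untreated KO, and 573.7 to 602.9 against 653.9 to 981.7 CPM in WT. Klf5, known from dividing crypt cells, was not lower in these samples, as given above.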
